A study of Mus musculus with 15 samples.

Results

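Mouse fibroblasts stimulated with IL-6 and its soluble receptor (IL6+IL6R) were compared directly with fibroblasts stimulated with TNFa, on Agilent single-colour expression arrays. The comparison took the 3 arrays labelled IL6+IL6R and the 3 arrays labelled TNFa, 6 of the 15 arrays of the series, and the 3 CTRL arrays were used to say which of the 2 groups had moved. The series also held 3 arrays labelled IL1b and 3 labelled TGFb1, which entered the fit and are not compared here. The cells were mouse embryonic fibroblasts of the 3T3 line (the methods give the Balb/c clone A31), an immortalised line that grows as an adherent monolayer and that is a single clone. CTRL cells were left unstimulated, TNFa cells received 10 ng/ml of recombinant TNFa, and IL6+IL6R cells received 20 ng/ml of IL-6 with 25 ng/ml of the soluble IL-6 receptor alpha chain, all of them seeded in the same serum-supplemented medium. The labels allow 24 or 72 h of culture, and the methods give 24 h for the TNFa and CTRL arrays. No time is given for the IL6+IL6R arrays, so that time and stimulus cannot be told apart in any difference between IL6+IL6R and either other group. RNA came from whole cultures, in which a change of RNA per cell and a change in the share of cells that carry it cannot be told apart.

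IL-6 binds a receptor alpha chain (Il6ra), and the complex engages gp130 (Il6st), a chain found on nearly all cells. Adding the soluble receptor lets cells with little Il6ra of their own respond. The bound gp130 activates JAK kinases and the transcription factor STAT3, which turns on its own inhibitor Socs3 and, in liver, the acute-phase genes. TNFa binds Tnfrsf1a and Tnfrsf1b, which recruit adaptor and ubiquitin ligase complexes and release NF-kB from its inhibitors, and NF-kB then turns on chemokines, adhesion molecules, matrix proteases and its own inhibitors Nfkbia and Tnfaip3.

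A value is the log2 processed signal of a probe minus the 75th percentile of its array, so 0 is the 75th percentile itself, and values of different probes are not compared. A probe was called when the limma fit with the slide as a block gave an adjusted p (Benjamini-Hochberg over the 29334 probes tested) below 0.05 and a fold-change of at least 1.5. The 75th percentile of the signal lay between 325 and 445 on the 15 arrays, between 48.3 and 54.9% of probes were well above background, and no spot was saturated. Arrays of the same group correlated at r = 0.981 to 0.991 over probes, and no pair held identical values. Arrays of different groups correlated at 0.977 to 0.990 on the same slide and at 0.971 to 0.986 across slides, so these ranges overlap. Of 10 fibroblast markers all were tested, with a mean level over the list between 6.72 and 7.07 on the IL6+IL6R arrays and between 6.19 and 6.61 on the TNFa arrays. The defining leukocyte markers Ptprc and Adgre1, the epithelial markers Epcam, Cdh1 and Krt5, and the endothelial markers Cdh5, Kdr, Tek and Emcn were not well above background on all arrays of any group, with Epcam above it on 1 array in all and the others on 0. The keratin Krt19, also an epithelial marker, was above background on all IL6+IL6R and CTRL arrays and on 0 of 3 TNFa arrays, at least 4.41-fold higher with IL6+IL6R, while Krt8 and Krt18 were not called. In a fit that also blocked on the run of label numbers, described below, Krt8 was called higher with IL6+IL6R as well (adjusted p = 0.044) and both were called below CTRL with TNFa, Krt8 being above background on 1 IL6+IL6R array and 0 TNFa arrays and Krt18 on 2 and 1. Of the 5 leukocyte markers tested (of 8), Cd14 was higher with TNFa by 0.82 and the other 4 were not called, and the 1 endothelial marker tested (of 5), Pecam1, differed by -0.15.

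The stimulations differed in more than 1 in 10 of the probes tested. In IL6+IL6R against TNFa, 3027 of 29334 probes were called, 1613 higher with IL6+IL6R (5.5% of the probes tested) and 1414 lower (4.82%), over 1848 named genes. Of these, 1524 differed by at least 2-fold and 497 by at least 4-fold, 246 higher with IL6+IL6R and 251 higher with TNFa. All 3 arrays of one group lay above all 3 of the other for 1548 of the 1613 probes that were higher with IL6+IL6R and for 1296 of the 1414 that were lower. All 3027 differences had the same sign within each of the 2 slides. The probes had been selected on these same arrays, so the separation and the signs describe them and are not independent support. The median difference over all probes tested was -0.04.

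Most of these differences came from the TNFa arrays. TNFa against CTRL called 3512 probes, 1694 higher (5.77%) and 1818 lower (6.2%). IL6+IL6R against CTRL called 37, of which 32 were higher (0.109%) and 5 lower (0.017%), with 1642 probes at an unadjusted p under 0.05. Of the 3027 probes that separated the stimulations, 2374 (78.4%) were called between TNFa and CTRL alone, 1118 of them raised by TNFa and 1256 lowered by it. For 16 probes (0.529%) the call was between IL6+IL6R and CTRL alone. In 8 probes both groups were called in opposite directions and in 4 in the same direction. The other 625 (20.6%) were called on neither side, and in 611 of these TNFa and IL6+IL6R lay on opposite sides of CTRL, with median distances of 0.51 for TNFa and 0.33 for IL6+IL6R. The 3 contrasts share arrays, so the sides describe the difference and are not independent tests of it.

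**Figure D1:**
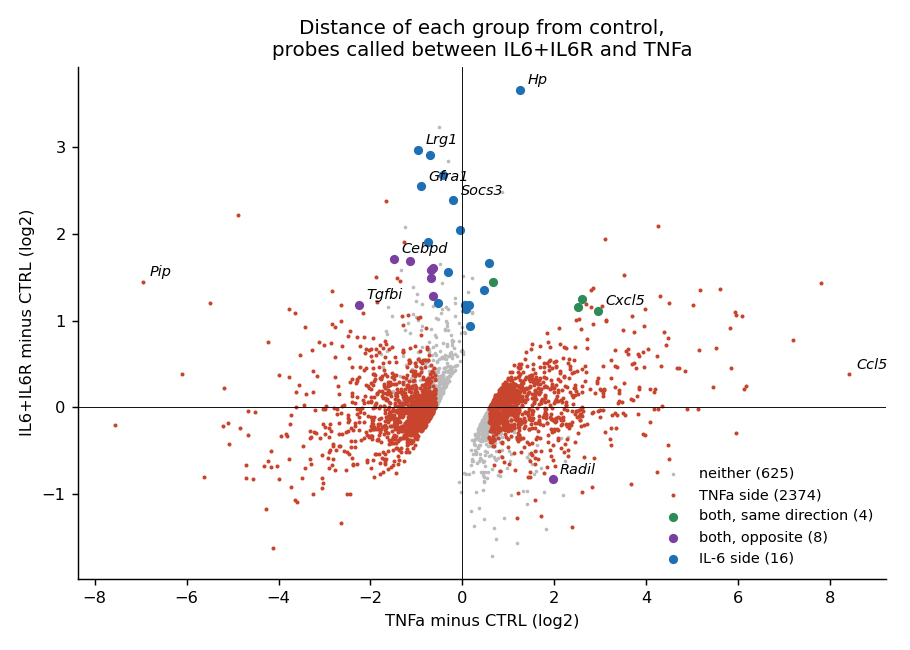
Distance from CTRL on the log2 scale, TNFa on the horizontal axis and IL6+IL6R on the vertical axis, for the 3027 probes called between IL6+IL6R and TNFa, coloured by the side that moved. The 2374 probes of the TNFa side spread along the horizontal axis from Krt15 (plotted at -7.56, its measured value, with the TNFa arrays at background) to Ccl5 (8.42), while the 16 of the IL-6 side (Hp, Lrg1, Gfra1 and Socs3 among them) stand above the origin.

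The number of calls between IL6+IL6R and CTRL depended on how the arrays were blocked. The label numbers 1 to 5, 6 to 10 and 11 to 15 each hold 1 array of every group. Arrays of the same run of numbers deviated together from the fit of group and slide (r = 0.31 to 0.62 over 9 pairs of arrays from different groups). The median was -0.23 over 18 pairs from different runs. Deviations cancel out within a group, so positive values within runs bring negative ones between runs, and this median is not a separate baseline. The labels do not say what a run is. With the run as a second block beside the slide, IL6+IL6R against CTRL called 231 probes (162 higher and 69 lower, all 37 of the first fit included), the IL-6 side held 73 probes, and IL6+IL6R against TNFa called 4142. The share of differences on the TNFa side was then 78.1%, and without CTRL array 6 it was 57.7%. In fits that left out 1 array, the calls between IL6+IL6R and CTRL numbered 8 to 32. They numbered 8 without IL6+IL6R array 13, 12 without IL6+IL6R array 8, 11 without CTRL array 1, and 19 without CTRL array 6 or CTRL array 11.

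Of the genes of the IL-6 signalling chain, Socs3 and Cebpd separated the groups most. Socs3, the inhibitor that STAT3 turns on against gp130 and the JAKs, stood at 4.95, 5.66 and 5.08 on the IL6+IL6R arrays, at 2.49, 2.40 and 2.90 on the TNFa arrays and at 2.89, 2.53 and 3.1 on the CTRL arrays. The IL6+IL6R arrays were all above the other 6, and TNFa overlapped CTRL. The difference between the stimulations was 2.59 ± 0.20 (log2, SE of the fit, adjusted p = 1.1e-05), a 6.01-fold difference that lay on the IL-6 side (2.39 above CTRL, adjusted p = 0.00098). Socs3 kept its call against CTRL in all 22 alternatives in which it could be fitted.

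Cebpd, a C/EBP family transcription factor of the acute-phase response, differed from CTRL in both groups. It was at 4.31, 4.95 and 4.65 with IL6+IL6R, at 1.32, 1.57 and 1.57 with TNFa and at 2.62, 3.06 and 3.11 in CTRL, so that the 3 groups did not overlap. Against CTRL it rose by 1.71 with IL6+IL6R (adjusted p = 0.01) and fell by 1.48 with TNFa (adjusted p = 0.00073), which made a 9.12-fold difference between the stimulations (log2 3.19 ± 0.21, adjusted p = 3.6e-06).

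Stat3 was at 5.00, 5.40 and 4.57 with IL6+IL6R, at 3.18, 3.41 and 3.72 with TNFa and at 4.43, 4.30 and 4.60 in CTRL. It was 2.65-fold higher with IL6+IL6R (log2 1.41 ± 0.15, adjusted p = 0.0001), and the side that passed the test was TNFa, which lowered it by 0.86 (adjusted p = 0.0029), while IL6+IL6R stood 0.55 above CTRL (adjusted p = 0.33). Il6ra was at 1.97, 3.04 and 2.26 with IL6+IL6R, at 1.17, 1.78 and 1.18 with TNFa and at 2.23, 3.14 and 2.49 in CTRL. Its difference of 1.07 missed the threshold (adjusted p = 0.054) and passed it with the run as a block (1.08, adjusted p = 0.0002). TNFa lowered Il6ra by 1.26 from CTRL (adjusted p = 0.024). Il6st, the shared gp130 chain, differed by 0.13 ± 0.16 between the stimulations (adjusted p = 0.62).

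Tnfrsf1a and the NF-kB inhibitors were called on the TNFa side. Tnfrsf1a, the main TNF receptor of fibroblasts, was at 5.64, 5.93 and 6.00 with IL6+IL6R, at 4.61, 4.77 and 4.60 with TNFa and at 5.20, 5.63 and 5.35 in CTRL. TNFa lowered its own receptor by 0.82 (adjusted p = 0.0008), and the 2.43-fold difference from IL6+IL6R (log2 1.28 ± 0.12, adjusted p = 3.4e-05) was called on that side. Tnfrsf1b differed by 0.13 ± 0.11 (adjusted p = 0.48).

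Nfkbia, the inhibitor that holds NF-kB in the cytoplasm, was at 4.33, 4.39 and 4.01 with IL6+IL6R, at 6.67, 6.46 and 6.95 with TNFa and at 4.43, 4.03 and 4.36 in CTRL, 5.9-fold higher with TNFa (log2 -2.56 ± 0.08, adjusted p = 2.2e-08). Tnfaip3, the ubiquitin-editing enzyme A20, was at -0.03, -0.12 and -0.01 with IL6+IL6R, at 3.81, 3.55 and 3.60 with TNFa and at -0.21, -0.23 and -0.13 in CTRL, a 12.7-fold difference (log2 -3.67 ± 0.11, adjusted p = 1.4e-08). Nfkb2, the p100 precursor, was 2.12-fold higher with TNFa (log2 -1.09 ± 0.11, adjusted p = 5.9e-05). For these 3 genes IL6+IL6R stood within 0.17 of CTRL.

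**Figure D2:**
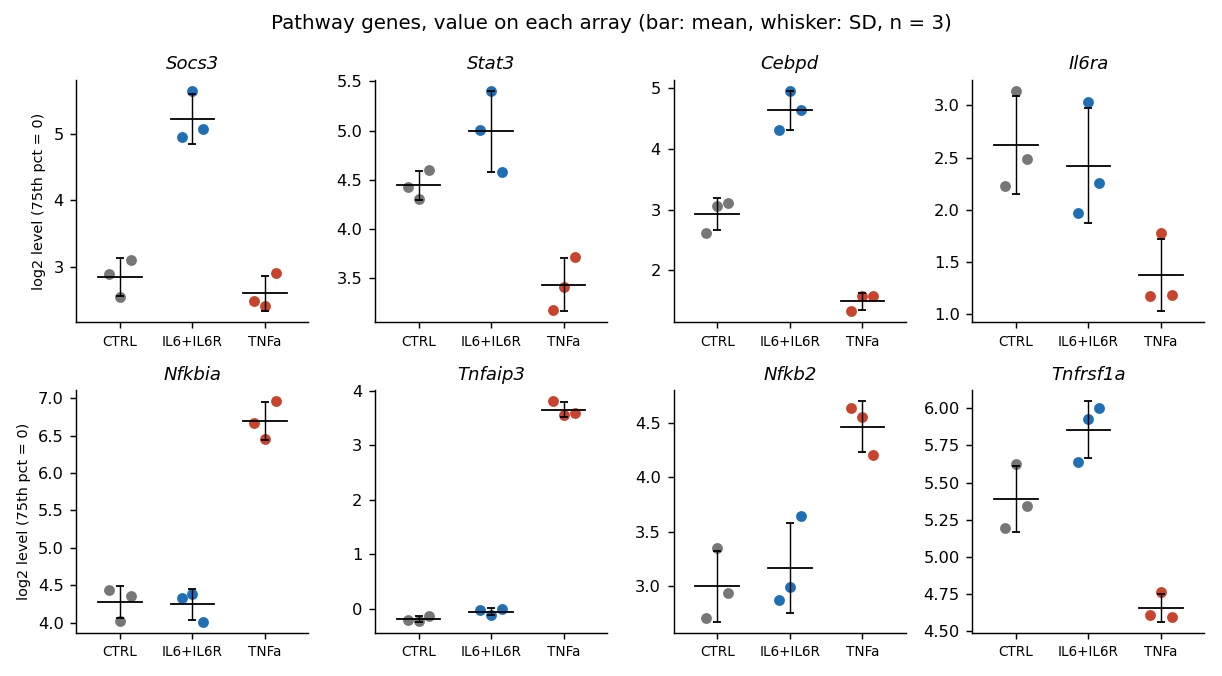
Level of 8 pathway genes on each array (log2 signal minus the array's 75th percentile; points are arrays, the bar is the group mean and the whisker the SD, n = 3). Socs3 was high on the 3 IL6+IL6R arrays alone, Cebpd separated all 3 groups, and Nfkbia, Tnfaip3 and Nfkb2 were high on the 3 TNFa arrays alone.

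The sequences just before the start sites of some of these genes are given because they carry the letters that STAT3 and NF-kB are known to bind. The RefSeq promoter table (GRCm38.p6) holds 32851 stretches of 250 bases before and 50 after a start, for 27025 genes. The STAT letters TTCNNNGAA, which read the same on both strands, occurred in 9.55% of these genes, and the short NF-kB form GGANTTTCC, searched on both strands, in 1.45%, counting a gene when any of its stretches held the letters. Upstream of Socs3 (chr11:117969452-117969580, minus strand) the STAT letters, in capitals, began 154 bases before the start. Upstream of Nfkbia (chr12:55492757-55492885, minus strand), Tnfaip3 (chr10:19015411-19015494, minus strand) and Cxcl10 (chr5:92348979-92349107, minus strand) the NF-kB letters, in capitals, began 178, 24 and 158 bases before the start, and a second match in Nfkbia began at 29 bases, outside the stretch shown.
Socs3: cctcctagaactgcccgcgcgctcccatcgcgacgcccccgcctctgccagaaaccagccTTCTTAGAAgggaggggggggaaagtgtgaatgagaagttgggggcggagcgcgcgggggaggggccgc
Nfkbia: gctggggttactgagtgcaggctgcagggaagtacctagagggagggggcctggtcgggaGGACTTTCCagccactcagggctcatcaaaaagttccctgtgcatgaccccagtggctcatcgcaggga
Tnfaip3: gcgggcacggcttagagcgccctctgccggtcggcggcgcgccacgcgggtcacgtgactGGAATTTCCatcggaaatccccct
Cxcl10: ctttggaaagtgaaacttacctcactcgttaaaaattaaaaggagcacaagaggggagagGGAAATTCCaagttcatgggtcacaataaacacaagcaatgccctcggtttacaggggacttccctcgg
Of the 22 genes above CTRL with IL6+IL6R, 16 had a promoter in the table, and 4 of them held the STAT letters (Gcnt2, Sbno2, Socs3 and Sphk1) and 0 the NF-kB letters. Of the 12 members of the NF-kB list that were higher with TNFa, 10 had a promoter, 4 with the NF-kB letters (Tnfaip3, Nfkbia, Tnfaip2 and Nfkb2) and 2 with the STAT letters (Tnip1 and Nfkb2). These 2 sets were added after seeing the data, and the sets that follow were planned. Among the 12 largest differences in each direction, those higher with TNFa held the NF-kB letters in 2 of 10 promoters (Acod1 and Cxcl10) and those higher with IL6+IL6R in 0 of 11. The STAT letters were in 1 of these 10 promoters (Ptpn22) and in 1 of these 11 (Pip). Among the 7 genes named for the largest calls against CTRL with IL6+IL6R, 5 had a promoter and 1, Socs3, held the STAT letters. These matches are letters in a window and not binding sites.

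The 37 probes called between IL6+IL6R and CTRL belonged to 27 named genes, 22 of them above CTRL and 5 below, and 4 probes had no gene name. The acute-phase proteins Hp and Lrg1 had the largest differences. Hp, haptoglobin, which binds free haemoglobin, was at 3.21, 3.38 and 4.38 with IL6+IL6R, at 1.00, 1.17 and 1.66 with TNFa and at 0.04, -1.17 and 1.12 in CTRL. Every IL6+IL6R array was above every other array, at 3.66 over CTRL (adjusted p = 0.03) and 5.27-fold over TNFa (log2 2.40 ± 0.56, adjusted p = 0.014). TNFa stood 1.26 over CTRL for Hp, which missed the threshold (adjusted p = 0.14) and passed it with the run as a block (1.34, adjusted p = 0.0051). The call of Hp against CTRL with IL6+IL6R held in 2 of the 9 fits that left out 1 array.

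Lrg1, a leucine-rich secreted glycoprotein, was at -2.89, -1.18 and -2.0 with IL6+IL6R, at -6.11, -5.63 and -5.85 with TNFa and at -5.87, -4.98 and -4.13 in CTRL. It was not well above background on any TNFa array, so its difference is given as a bound, the IL6+IL6R mean over the mean of the lowest signal above background on the TNFa arrays, and was at least 6.61-fold (adjusted p = 0.0003 in the fit). Its call against CTRL (2.97, adjusted p = 0.048) held in 10 of 21 alternatives and in 2 of the 9 fits that left out 1 array. Dppa1, known from pluripotent cells, was at -4.48, -2.15 and -3.37 with IL6+IL6R and not well above background on any TNFa or CTRL array. It was at least 2.66-fold higher than with TNFa, and the fit (adjusted p = 0.00017) compared it with TNFa signals at background. Its call against CTRL (at least 2.79-fold, adjusted p = 0.024) held in 14 of 21 alternatives and in 5 of the 9 fits that left out 1 array.

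Receptors and neurotrophic signals were among the others. Gfra1, the binding chain of the GDNF receptor, was at -1.09, -0.25 and -1.75 with IL6+IL6R, at -4.04, -5.17 and -4.77 with TNFa and at -3.09, -3.86 and -3.81 in CTRL. It was above background on 2 of the 3 TNFa arrays, and was 11-fold higher with IL6+IL6R than with TNFa (log2 3.45 ± 0.38, adjusted p = 0.0001) and 2.55 above CTRL (adjusted p = 0.025). A dimmer probe was not well above background on any TNFa or CTRL array, so it gave only bounds. These were at least 3.48-fold over TNFa and at least 3.65-fold over CTRL. For the brighter probe of Gfra1 the call against CTRL held in 3 of the 9 fits that left out 1 array. With the run as a block TNFa was called below CTRL for it as well (-0.94). Its ligand Gdnf rose with both stimulations, by 1.68 with IL6+IL6R and 1.86 with TNFa, and differed by -0.17 between them. The cytokine receptor chains Il4ra, Il13ra1 and Il2rb stood 1.56, 1.67 and 1.91 above CTRL with IL6+IL6R (adjusted p = 0.048, 0.048 and 0.03), and none of the 3 was called with TNFa. With the run as a block TNFa was called above CTRL for Il13ra1 (0.62, adjusted p = 0.027) and below it for Il2rb (-0.71, adjusted p = 0.031). When 1 array was left out, Il4ra and Il13ra1 lost these calls in all 9 fits and Il2rb in 6. The Il2rb value is that of a probe other than its brightest.

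Transcriptional regulators were among the rest. Sbno2, a STAT3-induced co-regulator, rose in all 3 of its probes (1.18, 1.13 and 0.94 above CTRL) with no TNFa call, and its brightest probe was at 3.76, 4.15 and 3.88 with IL6+IL6R, at 2.92, 2.86 and 2.89 with TNFa and at 2.79, 2.64 and 2.80 in CTRL. Nfkbiz, the nuclear IkB-zeta, was at 1.5, 1.61 and 1.31 with IL6+IL6R, at 0.57, 0.44 and 0.58 with TNFa and at 0.29, -0.04 and 0.11 in CTRL, so that all 3 groups were apart. Its rise of 1.35 with IL6+IL6R was called in all 22 alternatives, and a dimmer probe was called above CTRL with both stimulations, by 1.44 and 0.67. Bcl3, another nuclear IkB protein, rose with both stimulations, by 1.65 with IL6+IL6R and 1.13 with TNFa, as did the neutrophil-attracting chemokine Cxcl5, by 1.12 and 2.95. Nfil3, a bZIP repressor, and Slc39a14, a zinc importer of the acute-phase response, rose by 0.91 and 0.71 with IL6+IL6R and were not called between the stimulations. The lipid kinase Sphk1 and the Golgi mannosidase Man1a rose by 1.18 and 1.21. In the 9 fits that left out 1 array, these calls against CTRL with IL6+IL6R held in 6 for Nfil3, 5 for Bcl3 and Man1a, 3 for Cxcl5, 2 for Sphk1 and 1 for Slc39a14.

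On both sides, in opposite directions, 6 genes were called. Tgfbi, a matrix protein first found as a TGF-beta target, was at 4.63, 4.82 and 4.23 with IL6+IL6R, at 1.01, 0.90 and 1.07 with TNFa and at 3.54, 3.20 and 3.39 in CTRL. It rose by 1.18 with IL6+IL6R (adjusted p = 0.012) and fell by 2.24 with TNFa (adjusted p = 3.6e-06), and the groups did not overlap. Muc1, a membrane mucin, rose by 1.69 and fell by 1.14, and it was above background on 1 of the 3 TNFa arrays. Gcnt2, which branches the poly-lactosamine chains of glycans, rose by 1.5 and fell by 0.69, and Mfsd13a rose by 1.61 and fell by 0.64. Radil, an effector of the small GTPase Rap, ran the other way, at -2.14, -2.27 and -2.48 with IL6+IL6R, 0.20, 0.44 and 0.63 with TNFa and -1.56, -1.51 and -1.32 in CTRL. Cebpd, above, completed the group. The other genes below CTRL with IL6+IL6R (Mn1, Pear1, Gm11627 and Gas2) were also below it with TNFa, by 0.82 to 1.00, and were not called between the stimulations. For Gas2 every IL6+IL6R array lay above every TNFa array (0.39, adjusted p = 0.022), under the fold criterion. When 1 array was left out, the calls with IL6+IL6R held in 3 of 9 fits for Mn1, 2 for Pear1, 1 for Gm11627 and 0 for Gas2, and in 5 for Tgfbi, Muc1, Gcnt2 and Radil, 7 for Cebpd and 9 for Mfsd13a.

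**Figure D3:**
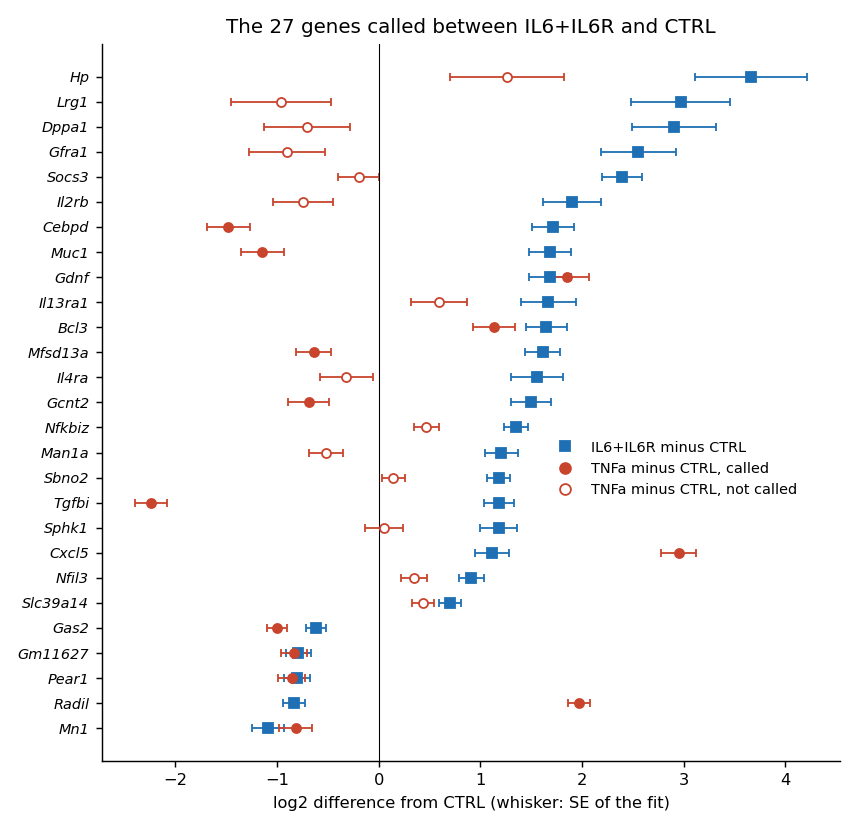
Difference from CTRL on the log2 scale for the 27 genes called between IL6+IL6R and CTRL (squares, IL6+IL6R; circles, TNFa, filled where called; whiskers, SE of the fit). Hp and Lrg1 lie farthest to the right for IL6+IL6R, and Cebpd, Muc1, Mfsd13a, Gcnt2, Tgfbi and Radil show filled circles on the opposite side of 0.

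Across the STAT3 feedback and target genes, 10 of the 24 tested were higher with IL6+IL6R and 1, Vegfa, was higher with TNFa, with a median difference of 0.51. Among all 13528 gene names tested, 951 (7.03%) were higher with IL6+IL6R and 702 (5.19%) with TNFa, with a median of -0.02. Lrg1, Cebpd, Socs3 and Il4ra, the 4 largest, were those with a call above CTRL with IL6+IL6R. Stat3, Fos (1.46) and Pias3 (0.66) were called on the TNFa side, where TNFa had lowered them by 0.86, 0.93 and 0.88, and Osmr (1.17), Pim3 (0.77) and Hif1a (0.67) were called on neither side. Against CTRL, IL6+IL6R raised 5 of the 24, and 10 with the run as a block (adding Osmr, Junb, Bcl6, Pim1 and Timp1), and lowered 0 in both fits. With that block Myc (-0.93) and Socs1 (-0.62) joined Vegfa as higher with TNFa. By their brightest probe, IL6+IL6R raised 21 of the 13528 gene names against CTRL and lowered 5. TNFa raised 846 of them and lowered 1096. With the run as a block IL6+IL6R raised 92 and lowered 54, and TNFa raised 1090 and lowered 1325. Between the stimulations that block called 1207 names higher with IL6+IL6R and 992 with TNFa. The counts of the lists below are to be read beside these.

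Of the 18 tested genes of the IL-6 family and the JAK-STAT chain, 4 were higher with IL6+IL6R (Il6 1.5, Stat3 1.41 and Osmr 1.17 among them) and 0 with TNFa, with a median of 0.30. Il6 itself was at -1.30, -0.17 and -0.97 with IL6+IL6R, at -2.37, -2.13 and -2.49 with TNFa and at -2.66, -2.20 and -2.13 in CTRL. It stood 1.52 above CTRL with IL6+IL6R (adjusted p = 0.16, and 0.017 with the run as a block) and 0.01 above it with TNFa. Against CTRL, 0 of the 18 were called with IL6+IL6R, and 3 with the run as a block (Il6, Osmr and Lifr). That block also called Il6ra and Il11 (0.77) higher with IL6+IL6R than with TNFa. Lif, a related gp130 ligand, was not well above background on any IL6+IL6R or CTRL array, rose with TNFa (adjusted p = 0.015) and was not called between the stimulations (adjusted p = 0.067).

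The acute-phase proteins split between the stimulations, 4 of the 11 tested higher with IL6+IL6R and 3 higher with TNFa. Besides Hp and Lrg1, Lcn2 (3.16) and Ptx3 (1.51) were higher with IL6+IL6R and called on neither side. Lcn2, an iron-siderophore binding lipocalin, was at -1.08, 2.52 and -0.49 with IL6+IL6R against -2.86, -2.19 and -3.14 with TNFa, and lost its call in 10 of 25 alternatives. On the TNFa side, Saa3, a serum amyloid A made outside the liver, was at 4.41, 5.91 and 4.44 with TNFa, at -1.82, -0.45 and -2.13 with IL6+IL6R and at -2.80, -2.87 and -3.05 in CTRL. It was 83.1-fold higher with TNFa than with IL6+IL6R (log2 -6.38 ± 0.67, adjusted p = 7.6e-05). Saa1 (-3.00) and the metallothionein Mt2 (-1.44) were also higher with TNFa. Against CTRL, 2 of the 11 were raised with IL6+IL6R, and 4 with the run as a block (adding Mt2 and Ptx3). That block also called Cp, the copper carrier ceruloplasmin, higher with TNFa than with IL6+IL6R (-1.74, adjusted p = 0.00013). The liver genes Fga, Fgb, Fgg, Crp, Apcs, Hamp, A2m, Orm1, Orm2, Serpina3n and Steap4 were above background on 0 arrays.

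NF-kB subunits and feedback genes moved together on the TNFa side. Of 15 tested, 12 were higher with TNFa and 1, Nfkbiz, with IL6+IL6R, and the median difference was -1.5. TNFa raised 14 of them from CTRL, and IL6+IL6R raised 2, Bcl3 and Nfkbiz. Traf1, an adaptor of the TNF receptors, was at 2.97, 2.25 and 3.11 with TNFa, at -1.83, -2.78 and -2.02 with IL6+IL6R and at -1.31, -2.54 and -1.48 in CTRL, a 30-fold difference (log2 -4.91 ± 0.55, adjusted p = 0.00013). Nfkbie (-3.60), Tnip1 (-2.43) and Relb (-1.95) followed. In the TNF receptor complex, of 25 tested, Birc3 (-2.29), Birc2 (-1.03), Ltb (-1.0) and Tnf (-0.62) were higher with TNFa, Tnfrsf1a was higher with IL6+IL6R, and 20 were not called.

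Chemokines were the class in which the stimulations were farthest apart. Of 8 CXC and CX3C chemokines tested, 7 were higher with TNFa and 0 with IL6+IL6R (median -2.38), and of 10 CC chemokines 7 and 0 (median -1.91). Ccl5, which attracts T cells and monocytes, was at 7.64, 8.36 and 8.16 with TNFa, at 0.32, 0.30 and -0.42 with IL6+IL6R and at -0.56, -0.73 and 0.35 in CTRL. Its 263-fold difference (log2 -8.04 ± 0.31, adjusted p = 8.4e-08) was the largest in favour of TNFa among the named genes. Cxcl10, a ligand of Cxcr3, was 29.9-fold higher with TNFa (log2 -4.90 ± 0.61, adjusted p = 0.00028), at 5.30, 5.45 and 5.23 against -0.54, 1.86 and 0.18. Cxcl9, another Cxcr3 ligand, was at least 13.6-fold higher and Cxcl2, which attracts neutrophils, at least 4.79-fold higher, both of them not well above background on any IL6+IL6R or CTRL array. Ccl20 (-3.63), Cxcl1 (-2.92), Ccl9 (-2.90), Ccl8 (-2.17) and Ccl2 (-2.15) were also higher with TNFa. Against CTRL, Cxcl5 alone among the 18 chemokines tested was called with IL6+IL6R, and with the run as a block Ccl8 was called as well (2.09). That block also called Ccl11, an eosinophil attractant, higher with IL6+IL6R than with TNFa (1.90).

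Interferon-stimulated genes were higher with TNFa in 15 of 24 tested and with IL6+IL6R in 0 (median -1.32), and TNFa raised 20 of them from CTRL. Rsad2, an antiviral enzyme, was at -0.50, 0.28 and -0.61 with TNFa, at -4.90, -1.71 and -5.00 with IL6+IL6R and at -4.93, -3.72 and -5.36 in CTRL, and was called (adjusted p = 0.011). Rsad2 was above background on 1 of the 3 IL6+IL6R arrays, as was Cmpk2, so no fold is given for either. Ifit3 differed by -3.25. With the run as a block 19 of the 24 were higher with TNFa (adding Oasl2, Irf7, Bst2 and Oas1a). IL6+IL6R array 8 was the highest of its group for 23 of the 24 genes, and its mean over the list was 2.37, against 1.59 and 1.42 on the other 2 arrays and 2.86 to 3.57 with TNFa. Both Rsad2 and Cmpk2 lost their calls without IL6+IL6R array 13, Cmpk2 in 3 and Rsad2 in 2 of 24 alternatives.

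The interferon-inducible GTPases followed, with 5 of 12 higher with TNFa and 0 with IL6+IL6R (median -1.57), and 11 of 12 with the run as a block. Gbp5 (-4.23), Gbp3 (-3.00) and Gbp2 (-2.64) had the largest of these calls. Gbp5 ranged from -5.51 to -1.03 with IL6+IL6R, above background on 2 of the 3 arrays, and lost its call in 8 of 24 alternatives. Gbp2 was called above CTRL with IL6+IL6R when the run was a block (1.05). In the MHC class I pathway 10 of 13 genes were higher with TNFa and 0 with IL6+IL6R (median -0.98), and 11 with the run as a block (adding Psmb9). Psmb10, an immunoproteasome subunit, was at 6.18, 6.32 and 6.44 with TNFa, at 4.61, 4.73 and 4.45 with IL6+IL6R and at 4.46, 4.01 and 4.65 in CTRL (3.42-fold, adjusted p = 7.5e-06). Tapbp (-1.28), the class I heavy chain H2-D1 (-1.10) and B2m (-0.65) lay on the TNFa side, with IL6+IL6R within 0.18 of CTRL.

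**Figure D4:**
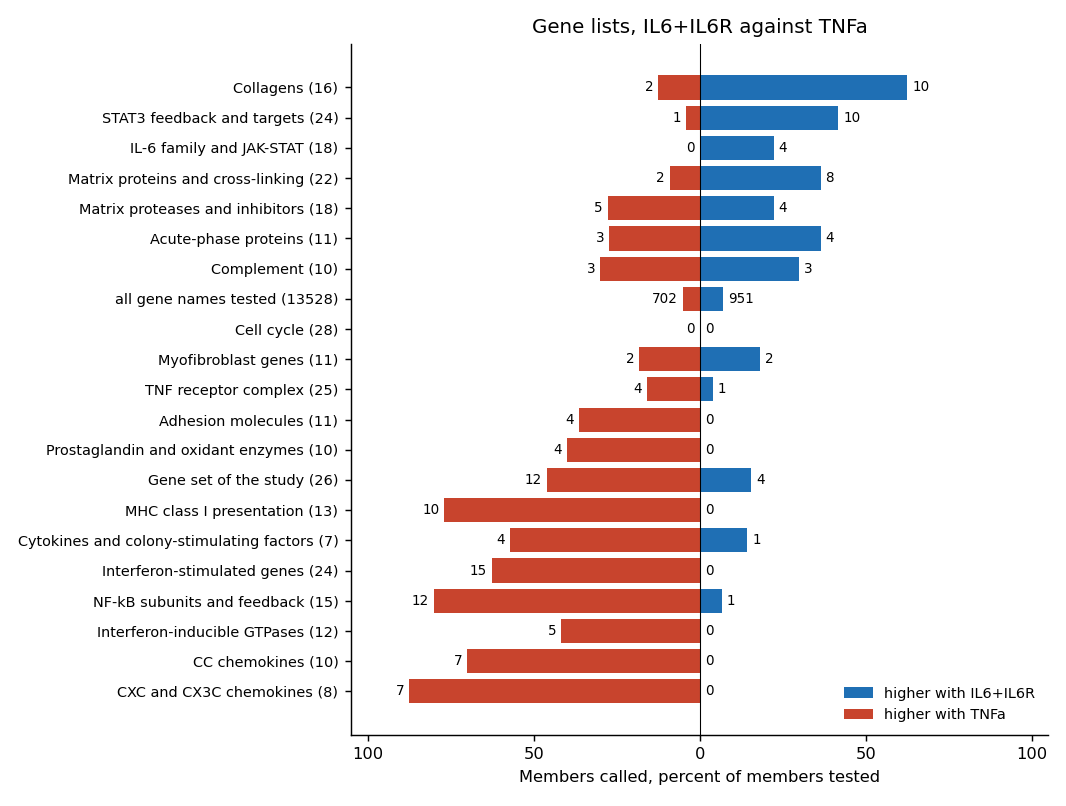
Share of the tested members of each gene list called higher with IL6+IL6R (right) or with TNFa (left), with the number of members at the bar ends and the number tested in brackets, lists ordered by their median difference. The 2 chemokine lists, the NF-kB list and the MHC class I list reach farthest to the left, and the collagens farthest to the right, beside 7.03% and 5.19% for all gene names.

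Adhesion, cytokine and enzyme genes added to the TNFa side. Icam1, a ligand of leukocyte integrins, was at 2.67, 2.59 and 3.18 with TNFa, at -2.23, -1.68 and -2.10 with IL6+IL6R and at -3.55, -3.1 and -2.67 in CTRL, 28.3-fold higher with TNFa (log2 -4.82 ± 0.26, adjusted p = 8.9e-07). IL6+IL6R lay above every CTRL array for Icam1, by 1.10, which missed the threshold (adjusted p = 0.19). Vcam1 was 4.55-fold higher with TNFa, and of the 11 adhesion molecules tested 4 were higher with TNFa and 0 with IL6+IL6R. In the fit blocked by run, the junction protein Jam2 was called below CTRL with both stimulations, by 0.65 with IL6+IL6R and 0.63 with TNFa. Of the 7 cytokines and colony-stimulating factors, Csf2 (above background on 1 of the 3 IL6+IL6R arrays, so that no fold is given), Tslp (11.8-fold, above background on 2 of them), Il34 (2.39-fold) and Csf1 were higher with TNFa and Kitl, the stem cell factor, was higher with IL6+IL6R by 0.92, where TNFa had lowered it by as much. Among 10 prostaglandin and oxidant enzymes, 4 were higher with TNFa. These were Acod1, which makes itaconate (at least 13.5-fold, not above background without TNFa), Ch25h, which makes 25-hydroxycholesterol (35.4-fold), Gch1, which starts the synthesis of tetrahydrobiopterin (6.62-fold), and Sod2 (-1.43). In the fit blocked by run, Ptgs2, the inducible cyclooxygenase, was called higher with TNFa as well (-0.97, adjusted p = 0.015).

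Complement was divided, 3 of 10 genes each way. Cfb (-3.82), C3 (-3.49) and the C1 inhibitor Serping1 (at least 4.98-fold) were higher with TNFa. Cfd, or adipsin, was higher with IL6+IL6R by 2.57 and the decay factor Cd55 by 1.46, both of them lowered by TNFa, and C4b was higher by 0.88 with no call on either side. Cell cycle genes did not separate the stimulations, with 0 of 28 called in the limma fit in either direction, 0 with the run as a block, and differences between -0.45 and 0.23.

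Collagen genes were the clearest group that was higher with IL6+IL6R, and the movement was a fall with TNFa. Of 16 tested, 10 were higher with IL6+IL6R and 2 with TNFa, and the median difference was 0.86. Against CTRL, TNFa lowered 12 (median -1.26) and raised 2, while IL6+IL6R had 0 calls and a median of -0.24. Col3a1, a fibrillar collagen, was at 6.18, 7.19 and 6.56 with IL6+IL6R, at 3.96, 4.90 and 4.43 with TNFa and at 6.13, 7.15 and 6.51 in CTRL, 4.54-fold apart (log2 2.18 ± 0.46, adjusted p = 0.0081). Col12a1 was 4.8-fold and Col6a2 3.41-fold higher with IL6+IL6R. The basement membrane pair Col4a1 (1.48) and Col4a2 (1.44) and the Col6a1 (1.42) and Col6a3 (1.38) chains moved with them, and Col1a1 was higher by 0.76. Col5a3 (-1.71) and Col8a1 (-1.07) ran the other way, raised by TNFa. With the run as a block Col12a1 was also called above CTRL with IL6+IL6R (0.67, adjusted p = 0.011) and Col11a1 below it (-0.98), and Col5a2 (0.69) and Col11a1 (0.61) were called higher with IL6+IL6R than with TNFa. Col11a1 was above background on 1 array of each stimulation.

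Among matrix proteins and cross-linking enzymes, 8 of 22 were higher with IL6+IL6R and 2 with TNFa. Fmod, which binds collagen fibrils, was 6.22-fold higher with IL6+IL6R (log2 2.64 ± 0.49, adjusted p = 0.004) after a fall of 3.29 with TNFa, where it was above background on 2 of 3 arrays. The collagen-modifying enzymes Plod1 (1.26), Lox (0.94), P4ha2 (0.87), Loxl1 (0.80) and Bmp1 (0.64) and the enhancer Pcolce (0.85) were higher with IL6+IL6R, as was Thbs2 (1.09). Dcn, decorin, was at 7.41, 8.07 and 7.33 with TNFa, at 5.44, 6.37 and 5.02 with IL6+IL6R and at 5.44, 6.45 and 5.17 in CTRL, 4.01-fold higher with TNFa (adjusted p = 0.0095), and Tnc, tenascin C, was 3.78-fold higher. With the run as a block Lum (-2.26) and Pcolce2 (-1.44) were called higher with TNFa as well, and Postn (0.60) higher with IL6+IL6R.

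Matrix proteases and their inhibitors were divided between the stimulations, with proteases on both sides. The proteases Mmp13, Mmp9, Mmp10, Mmp3 and Mmp8 were higher with TNFa, 5 of the 18 genes tested. Mmp13, a collagenase, was at 3.65, 3.02 and 3.55 with TNFa, at -1.81, -2.41 and -1.76 with IL6+IL6R and at -2.42, -2.56 and -2.34 in CTRL, 42.2-fold apart (log2 -5.40 ± 0.23, adjusted p = 1.3e-07). Mmp9, above background on 2 of the 3 IL6+IL6R arrays, was 31.4-fold, Mmp10 21.5-fold and the stromelysin Mmp3 18.8-fold higher with TNFa. Timp3 (2.97), a matrix-bound inhibitor, and the proteases Adamts5 (2.22), Adamts1 (1.93) and Mmp19 (1.81) were higher with IL6+IL6R, and all 4 of these had been lowered by TNFa, by 1.69 to 3.32. When the run was a block, Timp4 (not well above background on any TNFa array), Adamts4 (0.79) and Mmp2 (0.71) were called higher with IL6+IL6R as well, and Adamts4 (1.02) and Timp1 (0.60) were called above CTRL with IL6+IL6R. Timp1 differed by -0.09 between the stimulations.

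**Figure D5:**
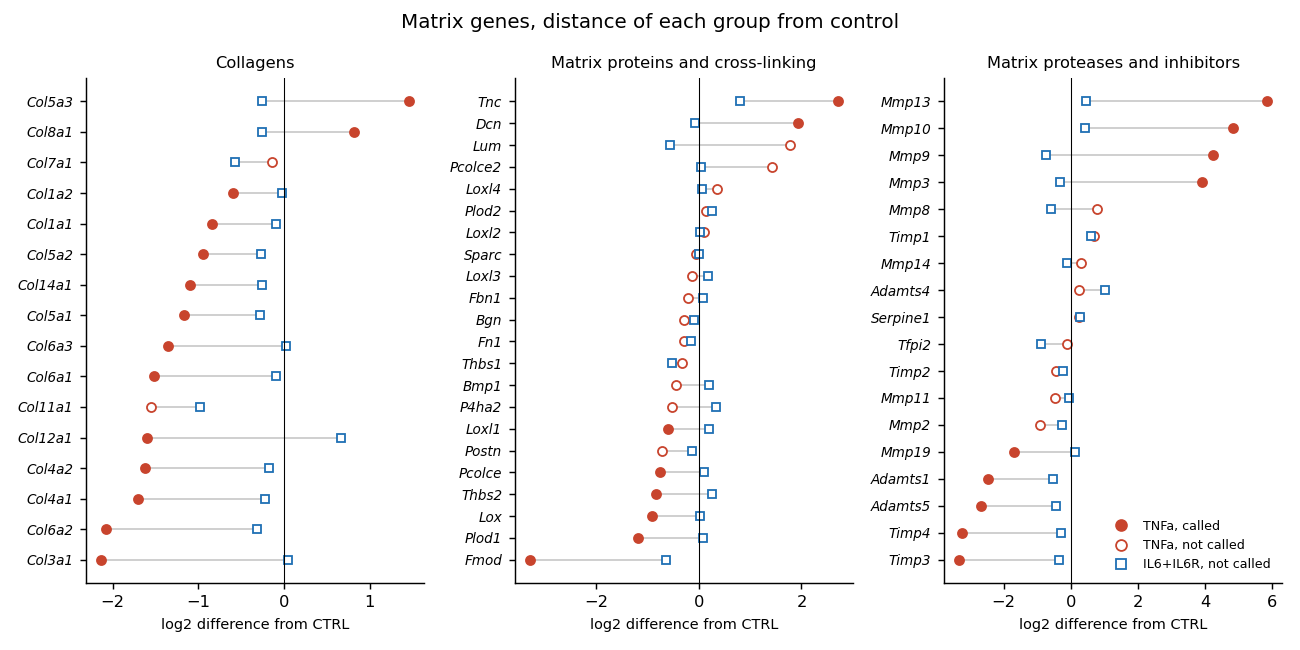
Difference from CTRL on the log2 scale for each tested gene of the 3 matrix lists (circles, TNFa, filled where called; squares, IL6+IL6R, none of them called). IL6+IL6R stays between -0.98 (Col11a1) and 1.02 (Adamts4), while TNFa spans -3.32 (Timp3) to 5.85 (Mmp13).

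Of 11 myofibroblast genes, 2 were higher with IL6+IL6R (the collagen-binding integrin Itga11, 3.86-fold, and Tpm2, 1.75-fold) and 2 with TNFa (Acta2, 2.01-fold, and Tpm1). Acta2, smooth muscle actin, was at 7.05, 6.91 and 7.55 with IL6+IL6R, at 7.80, 7.89 and 8.60 with TNFa and at 7.52, 7.13 and 8.37 in CTRL, was called on neither side and lost its call in 10 of 25 alternatives. When the run was a block, Myl9 (0.67) and Cnn1 (0.71) were called higher with IL6+IL6R as well, and Actg2 (-0.83) higher with TNFa. The 26 genes that the study used as a polarisation gene set were all tested. That set was chosen on these TNFa and control samples among others, so its direction is not independent evidence. It held 12 genes higher with TNFa and 4 higher with IL6+IL6R (Itga11, Il6, Col5a1 and Col1a1), and its median was -0.82. With IL6+IL6R, Cxcl5 was its only member called against CTRL, and with the run as a block Timp1 and Il6 were called as well. That block called 14 of the 26 higher with TNFa (adding Pcolce2 and Jag1).

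The 12 largest differences in favour of IL6+IL6R were all called on the TNFa side, below CTRL. Pip, a secreted protein of exocrine glands, was at 0.23, 2.67 and 1.62 with IL6+IL6R, at -6.82, -6.55 and -6.99 with TNFa and at -0.81, 0.55 and 0.42 in CTRL. It was not well above background on any TNFa array and at least 76.1-fold higher with IL6+IL6R (adjusted p = 5.1e-05). Krt15, an epithelial keratin, was at least 53.5-fold higher, Gdpd2, a glycerophosphodiesterase, at least 28.5-fold, the lipid receptor Trem2 at least 12.3-fold, Megf6 at least 7.05-fold and Krt13 at least 6.85-fold, each at background on all 3 TNFa arrays. Plin4, a lipid droplet coat protein, was at 2.32, 2.72 and 2.10 with IL6+IL6R, at -2.95, -2.51 and -2.31 with TNFa and at 2.67, 2.54 and 2.47 in CTRL, 30.1-fold apart (log2 4.91 ± 0.25, adjusted p = 6.1e-07). Tprg was 42.5-fold and the glycogen-targeting subunit Ppp1r3c 24.3-fold higher. The ligand Wnt16 was above background on 1 of the 3 TNFa arrays, so no fold is given for it. IL6+IL6R stood between -0.80 (Krt13) and 1.45 (Pip) of CTRL for these 12 genes, with the exception of 1600025M17Rik.

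For the cDNAs 1600025M17Rik and 2610528A11Rik every IL6+IL6R array lay above every CTRL array. 1600025M17Rik was at 2.04, 3.22 and 2.86 with IL6+IL6R, at -4.66, -4.51 and -3.95 with TNFa and at 0.08, 0.30 and 1.09 in CTRL. It stood 2.22 above CTRL with IL6+IL6R (adjusted p = 0.052, and 0.0024 with the run as a block) and 4.88 below it with TNFa, where it was above background on 1 of 3 arrays. 2610528A11Rik was at 2.29, 3.06 and 2.14 with IL6+IL6R, at -2.39, -2.34 and -2.62 with TNFa and at 1.47, 1.22 and 1.38 in CTRL, 1.14 above CTRL (adjusted p = 0.075, and 0.027 with the run as a block).

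Beyond Ccl5 and Saa3, the genes most in favour of TNFa included the phosphatase Ptpn22, the fatty acid receptor Gpr84 (at least 16.2-fold) and the transcript U90926 (32.9-fold). Ptpn22 was at 0.89, 0.53 and 0.11 with TNFa, and was above background on 1 of the 3 IL6+IL6R arrays, so no fold is given for it. Of 1653 genes called through their brightest probe, 551 had other tested probes, and in 532 of these every other probe had the same sign.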

How the data were processed

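Total RNA of 15 fibroblast cultures, 3 in each of 5 groups, had been labelled with Cy3 and hybridised to Agilent mouse arrays, 1 sample to an array. The authors scanned the arrays and deposited the output of Agilent Feature Extraction 10.7.3.1, whose processed signal is an intensity on a linear scale after background subtraction, with 62976 spots per array. The deposited series table of intensities equalled the processed signal (largest difference 0). The precision is limited by the number of arrays.

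From these values a mean log2 level was computed for each probe from its spots, and each array's 75th percentile was taken off. Control spots and spots marked as outliers were left out. Of 56605 probes, 33767 were named through their accession in the RefSeq table of GRCm38.p6, and 29334 were tested, those well above background on all arrays of at least 1 group. limma 3.58.1 (R 4.3.3) was fitted to all 15 arrays with the group and the slide, since the 2 slides, which coincide with the 2 scans, held 8 and 7 arrays and all groups. The IL1b and TGFb1 arrays thus entered the filter on dim probes, the slide estimate and the pooled spread. A call needed an adjusted p under 0.05 and a fold-change of at least 1.5. A fold with one group not above background was given as a bound, against the lowest signal above background on each array of the dim group or the probe's own value where higher. The adjusted p beside a bound came from the limma fit to the measured values, background signals included. A gene was represented by its brightest tested probe.

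Groups came from the sample labels. The study describes the TNFa and CTRL arrays as 3 independent experiments. No source used here says so of the IL6+IL6R arrays, so the spread between them may be technical. The p-values rest on a spread pooled over all 15 arrays of the fit. Same-run arrays (label numbers 1 to 5, 6 to 10 and 11 to 15) deviated together from the fit of group and slide. Each of the 9 pairs had a correlation above 0.1. The fit with the run as a second block is given where it changed the call of a list member between the stimulations or between IL6+IL6R and CTRL, or moved a count by over 1.5 times. Calls that it changed between TNFa and CTRL are given for a few genes named in the text. The named genes were 10 pathway genes, the 12 largest differences in each direction among probes with separated arrays, up to 3 called genes of each of the 20 lists and up to 6 in each direction called against CTRL with IL6+IL6R. The members of the lists, the rules and the comparison were chosen with earlier results of these data known. Genes outside the rule were named to account for counts, and 1 gene that the rule selects is not reported here. Alternatives covered the blocks, the arrays in the fit, the scaling, the background correction, the filter, the prior, the fold criterion and leaving out each array. The files held no mean signal, so the normexp correction was run on the median signal, a choice made after seeing the data. Counting the sides under every alternative was also added then. So were the promoter counts for the genes above CTRL with IL6+IL6R and for the NF-kB list. The limma scripts were tested on simulated data.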

Additional observations from a re-analysis of the deposited data

Results flagged for a closer look

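For 6 genes IL6+IL6R and TNFa moved away from CTRL in opposite directions, each of them called, and the difference between the stimulations was tested in the limma fit itself. On the log2 scale the difference of IL6+IL6R from TNFa was 3.42 for Tgfbi (adjusted p = 2.0e-07), 3.19 for Cebpd (adjusted p = 3.6e-06), 2.83 for Muc1 (adjusted p = 7.5e-06), 2.25 for Mfsd13a (adjusted p = 9.2e-06) and 2.18 for Gcnt2 (adjusted p = 3.1e-05), all of them higher with IL6+IL6R in 3 of 3 arrays. For Radil it was -2.80 (adjusted p = 8.4e-08), lower with IL6+IL6R in 3 of 3 arrays. The call between IL6+IL6R and CTRL held in 9 of the 9 fits that left out 1 array for Mfsd13a, in 7 for Cebpd and in 5 for Tgfbi, Muc1, Gcnt2 and Radil.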

How the results depend on the processing

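The groups share no label number, so arrays were not paired by number, and the run of label numbers was fitted as a block instead. With the run of label numbers and the slide as blocks, IL6+IL6R against CTRL called 231 probes (162 higher, 69 lower) and the IL-6 side held 73. Without the slide those values were 17 (17 and 0) and 7, with only the 9 arrays of these groups 4 (4 and 0) and 2, and with no filter on dim probes 12 (12 and 0) and 6. After normexp the IL-6 side held 31. With a fold of at least 2, IL6+IL6R against CTRL called 1 probe lower. Leaving out 1 array gave 8 to 32 calls between IL6+IL6R and CTRL (8 to 27 higher, 0 to 5 lower) and 5 to 16 on the IL-6 side. It gave 2180 to 3088 calls between IL6+IL6R and TNFa, and 2363 to 3720 between TNFa and CTRL, of which 1149 to 1918 were lower, the fewest without CTRL array 6. With no fold criterion, IL6+IL6R against TNFa called 4692 (2623 higher) and TNFa against CTRL 5624 (2614 higher, 3010 lower), with 3682 on the TNFa side. With a fold of at least 2 these were 1524 (800 higher, 724 lower), 1687 (798 and 889) and 1169. The causes of these shifts were not tested. No named difference that was called between the stimulations changed sign under any alternative run, and those of Il6st and Tnfrsf1b, which were not called, each did in 1 (-0.0068 and -0.012). Calls between the stimulations were lost most often for Lcn2 and Acta2 (10 of 25 alternatives each) and Gbp5 (8 of 24). Of 78 named differences, 10 lost their call without IL6+IL6R array 13. Probes near background limit the dim genes to bounds.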

Other observations

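The interferon lists also differed between arrays of the same group. Over the 12 interferon-inducible GTPases the mean level was -0.08, 1.65 and 0.29 on IL6+IL6R arrays 3, 8 and 13, 1.89, 2.90 and 2.35 on TNFa arrays 4, 9 and 14, and -0.87, 0.44 and 0.38 on CTRL arrays 1, 6 and 11. IL6+IL6R array 8 was the highest of its group in 12 of 12 of these genes, TNFa array 9 in 11 and CTRL array 6 in 6. These 3 arrays share the run of label numbers 6 to 10. Over the 24 interferon-stimulated genes the mean was 0.93, 1.44 and 1.96 on the CTRL arrays. CTRL array 6 was the highest of its group in 3 of these genes and TNFa array 9 in 19.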
